A study of Mus musculus with 2 samples.

Results

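The genes described here encode enzymes and partner proteins of the primary granules of neutrophils. The 8 genes were chosen by name: Mpo, Elane, Prtn3, Ctsg, Cfd, Prss57, Ms4a3 and Serpinb1a. They are 8 of the 20807 protein-coding genes on mouse chromosomes 1 to 19. No measured value entered the rule of choice, but earlier results of these data were known when the genes were chosen. Chromatin accessibility was measured in common myeloid progenitors of C57BL/6J males aged 5 to 6 weeks by ATAC-seq, an assay that marks open DNA by where a transposase inserts. There were 2 libraries of 50000 cells each, labelled biological replicates 1 and 2 of 1 group. No agent, engineered allele or second cell type is given in the labels. Both libraries carry the same donor label, and separate animals are not stated, so their spread may be technical. With 1 group there was no comparison between conditions and no test, and every value below is a description. The files list peaks and hold no read counts, which leaves the sequencing depth unknown.

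Primary (azurophil) granules are the first granules that a developing neutrophil makes, at the promyelocyte stage, and a common myeloid progenitor stands before that stage. Their cargo genes are known to be switched on by C/EBP factors, PU.1, RUNX1 with its partner CBFB, and MYB. Mpo encodes myeloperoxidase, which makes hypochlorous acid from hydrogen peroxide. Elane (neutrophil elastase), Prtn3 (proteinase 3), Ctsg (cathepsin G) and Prss57 (neutrophil serine protease 4) are serine proteases of the granule. Cfd encodes the serine protease complement factor D. Serpinb1a encodes an inhibitor of elastase, proteinase 3 and cathepsin G. Ms4a3 encodes a membrane protein with several transmembrane segments that marks granulocyte and monocyte progenitors in mouse.

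The deposited coordinates are on mm10 (GRCm38). Prss57, Prtn3, Elane and Cfd lie within 111 kb of chromosome 10, and the last 3 of them within 18.2 kb. Ctsg is on chromosome 14 among granzyme and mast cell protease genes, Mpo on chromosome 11, Ms4a3 on chromosome 19 and Serpinb1a on chromosome 13.

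The promoter sequences of 5 of the genes are printed first because the results below turn on which promoters were called. Each is the 150 bases before the outermost start of a protein-coding transcript in GENCODE M21, read from GRCm38 along the gene's strand, 5′ to 3′. Capitals mark matches to any of 10 motifs searched on both strands. The letters searched were TTGCNNAA for C/EBP factors, GAGGAAG for PU.1, CGGAAG for other ETS factors, TGTGGT for RUNX factors and AACNG for MYB. The others were GATAA for GATA factors, CCAAT for NFY, GGGCGG for SP factors, TGANTCA for AP-1 and TATAAA for the TATA box.
Mpo promoter (chr11:87793431-87793580, plus strand): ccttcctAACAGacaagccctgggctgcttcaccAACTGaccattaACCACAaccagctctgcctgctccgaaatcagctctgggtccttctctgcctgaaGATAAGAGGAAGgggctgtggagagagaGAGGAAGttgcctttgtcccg
Elane promoter (chr10:79886097-79886246, plus strand): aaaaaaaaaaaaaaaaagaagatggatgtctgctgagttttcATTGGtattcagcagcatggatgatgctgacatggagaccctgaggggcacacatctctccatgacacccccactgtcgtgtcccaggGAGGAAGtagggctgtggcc
Prtn3 promoter (chr10:79879464-79879613, plus strand): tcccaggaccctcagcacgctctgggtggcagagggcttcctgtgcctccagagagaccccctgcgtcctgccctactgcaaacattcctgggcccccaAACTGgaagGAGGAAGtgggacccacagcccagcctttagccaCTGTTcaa
Ctsg promoter (chr14:56102575-56102724, minus strand): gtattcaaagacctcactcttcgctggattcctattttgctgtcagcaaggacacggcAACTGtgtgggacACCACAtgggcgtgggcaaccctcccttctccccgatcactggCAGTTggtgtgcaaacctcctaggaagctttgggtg
Cfd promoter (chr10:79890703-79890852, plus strand): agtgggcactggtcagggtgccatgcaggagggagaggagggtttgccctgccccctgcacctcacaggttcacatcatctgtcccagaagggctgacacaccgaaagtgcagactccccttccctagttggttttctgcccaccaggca

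The PU.1 letters GAGGAAG stood close to the start in 3 of the 8 genes. In Mpo they occurred at 38 to 44 and at 15 to 21 bases before the start, in Elane at 14 to 20 bases and in Prtn3 at 36 to 42 bases, always on the strand of the gene. Of 20722 genes with such a window, 6.72% held GAGGAAG anywhere in it and 2.35% within the last 50 bases. The limit of 50 bases was not planned, was used for this motif alone and encloses the members' own matches. The share of 2.35% is therefore no independent background. The RUNX letters were found in 2 of the 8 genes, Mpo (99 to 104 bases before the start) and Ctsg (74 to 79 bases), on the other strand in both, against 7.79% of all genes. The MYB letters, which are short and frequent, were found in Mpo, Prtn3, Ctsg and Serpinb1a, 4 of 8 genes against 53.2% of all. In Mpo a GATA match adjoins the farther PU.1 match. None of the 8 windows held the C/EBP, ETS, SP or AP-1 letters, which 4.93%, 12.5%, 36.4% and 3.47% of all windows held. The Cfd, Ms4a3 and Prss57 windows held no match to any of the 10 motifs. The Prss57 window stands before the outermost start, at chr10:79790961, and lies outside the accessible region called at another start of the gene (chr10:79788470-79789170). Within 50 bp of the summit of that region the MYB letters were found. These are matches of letters only, and binding was not measured.

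Promoter accessibility was called for 4 of the 8 genes in the conservative list, the set of peaks of both replicates that pass a threshold on the irreproducible discovery rate (IDR), the expected share of peaks that do not recur. Ctsg, Mpo, Prss57 and Serpinb1a had a region within 1 kb of a start there, as did 63.5% of all protein-coding genes. With 8 genes, a count of 4 lies near the background share and sets the members apart in no way. A gene without a region was not called in that list, and without counts an upper limit on its accessibility cannot be given. The peak signal, a height given by the authors on a scale that is not stated, was 5.02 at Mpo, 6.45 at Ctsg, 5.68 at Prss57 and 8.95 at Serpinb1a. Among promoter regions of the same list, whose median was 8.93, these were percentiles 12.1, 25.8, 18.1 and 50.2. Only Serpinb1a, the inhibitor gene, thus reached the middle of the list. Elane, Prtn3, Ms4a3 and Cfd had no promoter region in it.

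The 4 genes were not the same in the other IDR-thresholded list of both replicates. There Ctsg, Prss57, Serpinb1a and Ms4a3 had a promoter region and Mpo had none, again 4 of 8 genes, against 63.4% of all genes. In replicate 1's own IDR-thresholded list the count was 1 of 8 (Serpinb1a) against 59.0% of all genes. In that of replicate 2 it was 2 of 8 (Prss57 and Serpinb1a) against 54.5%. Thus Serpinb1a was called in the IDR-thresholded list of each replicate, and Elane, Prtn3 and Cfd in none of the 4 IDR-thresholded lists.

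Lists without the IDR threshold held regions at nearly all of the 8 genes. The count was 7 of 8 in the replicated list (background 71.1%), in the pseudoreplicated list of both replicates (71.2%) and in an archived replicated list made from earlier files (76.5%). It was 7 of 8 in the pseudoreplicated list of replicate 1 (68.7%) and in its ranked list (68.8%). In replicate 2 it was 6 of 8 in the pseudoreplicated list (66.6%) and in the ranked list (66.7%), where Prtn3 was missing too. Cfd had no region within 1 kb of its start in any of the 11 lists, which held for 23.4% of all genes.

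Counted by gene, Serpinb1a had a promoter region in 11 of 11 lists, Prss57 in 10, Ctsg in 9, Mpo and Ms4a3 in 8, Elane in 7, Prtn3 in 5 and Cfd in 0. Mpo and Ms4a3 had the same number but not the same lists. Calls in some lists and not in others were thus found for 6 of the 8 members, against 23.0% of all genes, and 53.7% of all genes had a promoter region in all 11 lists.

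**Figure D1:**
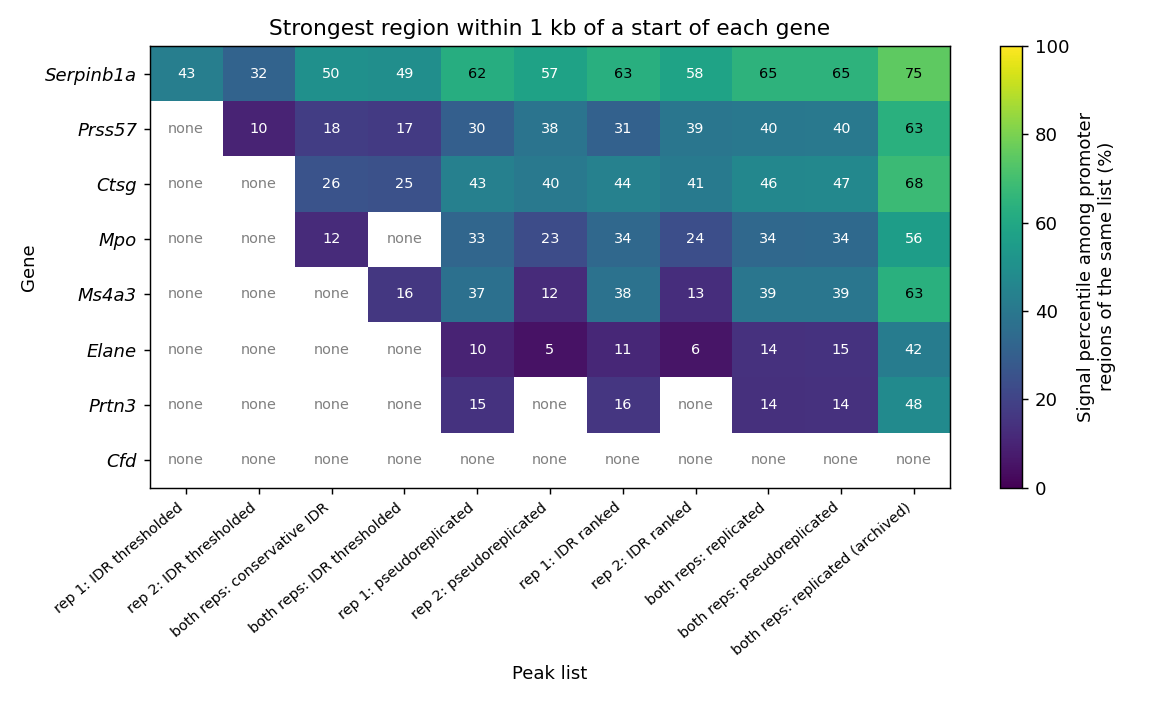
Promoter regions of the 8 genes (rows) in the 11 peak lists (columns). Each cell gives the percentile of the gene's strongest region within 1 kb of a start among promoter regions of that list, and "none" marks a gene without a region. Serpinb1a is filled in every column, Cfd in none, and the IDR-thresholded lists at the left hold 1, 2, 4 and 4 of the 8 genes.

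The ranked lists, which keep peaks on both sides of the threshold, show how near each promoter came to it. Their values are −log10 IDR, where 1.30 stands for an IDR of 0.05 and higher is more reproducible. In the ranked list behind the conservative list and in the other ranked list of both replicates, Serpinb1a had 3.27 and 2.97, Ctsg 2.71 and 2.30, and Prss57 2.15 and 2.14. These 3 genes passed in both. Mpo had 2.32 in the first and 0.838 in the second, whereas Ms4a3 had 0.668 and 1.60, so each of them passed in 1 list and failed in the other. Elane had 1.19 and 1.11, just outside the threshold in both lists. Prtn3 had 0.645 and 0.955.

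In the ranked lists of single replicates the −log10 IDR was lower at most genes. Such a value comes from 1 library, so it does not measure recurrence between the replicates and is not the same quantity. Serpinb1a had 2.55 in replicate 1 and 2.33 in replicate 2. Prss57 had 1.10 and 1.31, on either side of the threshold, and Ctsg 1.26 and 1.13, just below it in both. Mpo had 0.650 and 0.634, and Elane 0.388 and 0.364.

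**Figure D2:**
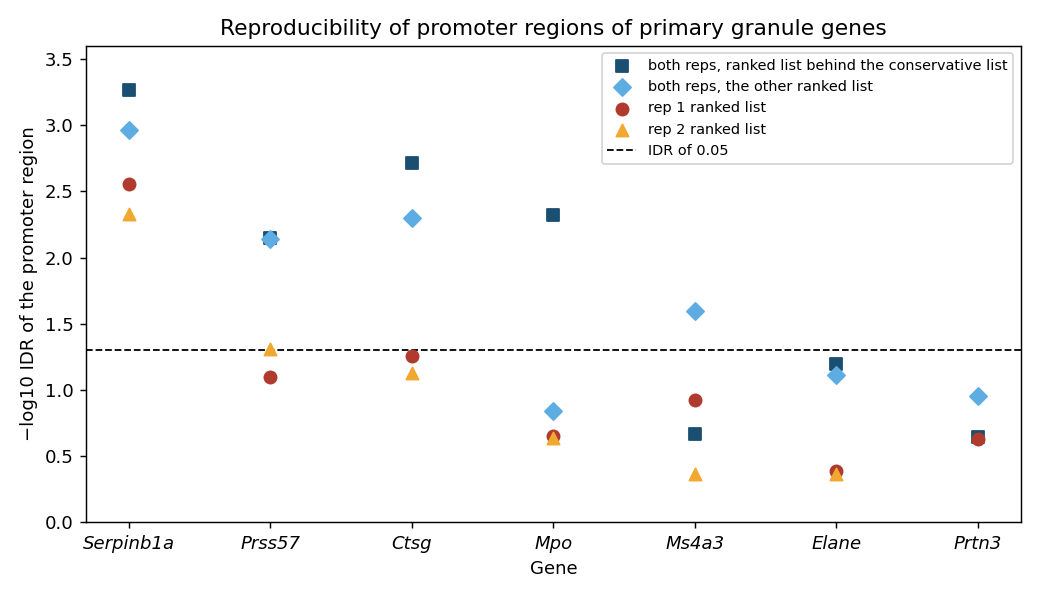
Reproducibility of the strongest promoter region of 7 genes (Cfd has none), as −log10 IDR on the vertical axis in 2 ranked lists of both replicates (square, diamond) and in the ranked list of each replicate (circle, triangle). The dashed line marks an IDR of 0.05. The values of a single replicate do not measure recurrence between the replicates. Serpinb1a lies above it in all 4 lists, Ctsg, Prss57, Mpo and Ms4a3 on both sides of it, and Elane and Prtn3 below it.

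In the replicated list the strongest promoter region had its summit within 100 bases of a start at 6 of the 8 genes. There the Mpo summit was 3 bases upstream of a start in a region of 973 bp (chr11:87793232-87794204). The Elane summit was 10 bases upstream in a region of 263 bp (chr10:79886125-79886387). That of Ctsg was 37 bases upstream in a region of 746 bp (chr14:56102002-56102747). That of Ms4a3 was 74 bases upstream of its nearest start, which is of a retained-intron transcript. Prss57 had its summit 22 bases downstream of a start, in an untranslated part of an exon. In the ranked list of replicate 1 that summit was 378 bases away from this position, and in that of replicate 2 it was 21 bases away. Serpinb1a had 3 promoter regions, the strongest with its summit 45 bases upstream, another 962 bases upstream and a weak one in a coding exon 765 bases downstream of an internal start.

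Prtn3 stood apart from these genes. The starts of its protein-coding transcripts, beside 1 of which the PU.1 letters lie, had no region in the replicated list. The calls within 1 kb of a Prtn3 start belonged to a noncoding transcript that begins at the neighbour Plppr3 and to a retained-intron transcript inside the gene (chr10:79882067-79882408). At the noncoding transcript the summit lay 22 bases downstream of the start. With starts of protein-coding transcripts alone, 6 of the 8 genes had a promoter region in the replicated list and the same 4 in the conservative list. Mpo also had a weak region, signal 2.62, 265 bases downstream of an internal start.

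Each replicate's ranked list gave the promoter signal separately. At Serpinb1a it was 8.49 in replicate 1 and 8.41 in replicate 2. At Ctsg it was 6.27 and 6.43, at Prss57 5.02 and 6.24, and at Mpo 5.26 and 4.82. Ms4a3 had 5.62 and 3.93, and Elane 3.44 and 3.30. Prtn3 had 3.80 in replicate 1 and no region in replicate 2. The order of the genes was thus alike at the top and bottom, and Serpinb1a was highest in both. Since the scale of the signal is not stated, the positions within each list are given too. Mpo stood at percentile 33.9 of the promoter regions of replicate 1 and 24.0 of replicate 2, Ms4a3 at 37.6 and 13.2, Elane at 11.1 and 5.84, and Prss57 at 31.1 and 39.3. With 1 value per library, neighbours in this order cannot be told apart beyond their spread.

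Distal regions were found at 6 of the 8 genes in the conservative list, against 58.6% of all genes with at least 1. A distal region is more than 1 kb from every start of a protein-coding gene and is given to the gene with the nearest start within 100 kb. The 8 genes had 17 in all. Serpinb1a had 7, a number that 8.28% of all genes reached or passed, Prtn3 and Ctsg had 3 each, Mpo 2, and Cfd and Ms4a3 1 each, while Elane and Prss57 had 0. The mean was 2.13 per member and 2.06 over all genes, and the medians were 1.5 and 1. In the replicated list the 8 genes had 24 distal regions, of which 17 had their summit between genes, 5 in introns and 2 in coding exons. A nearest start does not show which gene a region acts on.

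The share of regions that the conservative list kept differed between promoters and distal sites. Of the members' 11 promoter regions in the replicated list it held 5, against 71.1% of all promoter regions. Of their 24 distal regions it held 17, against 53.7% of all distal regions. The region count thus ran below the share of all promoters and above that of all distal regions. These are counts of regions, several of them from the same gene. Serpinb1a alone had 8 of the 24 distal regions and 7 of the 17 that were held. The promoter regions not held were those of Elane and Ms4a3 and those at internal or noncoding starts of Mpo, Prtn3 and Serpinb1a. Neither count is therefore read as a trait of the 8 genes. In the IDR-thresholded list of replicate 1 the counts were 2 of 11 against 59.1% and 7 of 24 against 35.4%. In that of replicate 2 they were 2 of 11 against 51.1% and 8 of 24 against 26.7%, so the promoter counts were low in both replicates and the distal counts were near the background.

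The median peak signal was also lower over the members' promoter regions, those at internal and noncoding starts counted. In the replicated list the members' promoter regions had a median signal of 5.02 (range 2.62 to 8.95), against 6.91 for all promoter regions. Their distal regions had a median of 5.81 (3.22 to 8.83), against 5.75 for all distal regions. In this list the strongest region of the locus was a distal one at Mpo, Prtn3, Ctsg, Cfd and Ms4a3. At Elane it was also the distal one, by 3.83 against 3.47, and at Serpinb1a the promoter exceeded the strongest distal region, 8.95 against 8.83. In the ranked list of replicate 2 the Ctsg promoter was instead the higher, 6.43 against 6.32. The −log10 IDR of the Ctsg promoter was also the higher in the ranked lists of both replicates together, 2.71 against 2.19 and 2.30 against 2.02. At Elane the ranked list of replicate 1 held the promoter region, at 3.44, and no distal one. In that of replicate 2 the Elane distal region was the higher, 3.98 against 3.30. The −log10 IDR of the Elane promoter was 1.19 against 1.12 and 1.11 against 1.12 in the same 2 lists of both replicates.

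Base composition was measured beside this. Over 301 bases around the summit, the members' promoter regions had a median of 5 CpG and a GC content of 52.5%, against 16 CpG and 59.1% for all promoter regions. Among the 11 regions, 7 fell in the lowest tercile of promoter regions, with at most 8 CpG. The conservative list held 4 of these 7, and it held 57.8% of all promoter regions in that tercile and 77.8% of the rest. The part of base composition in the calls was not tested.

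**Figure D3:**
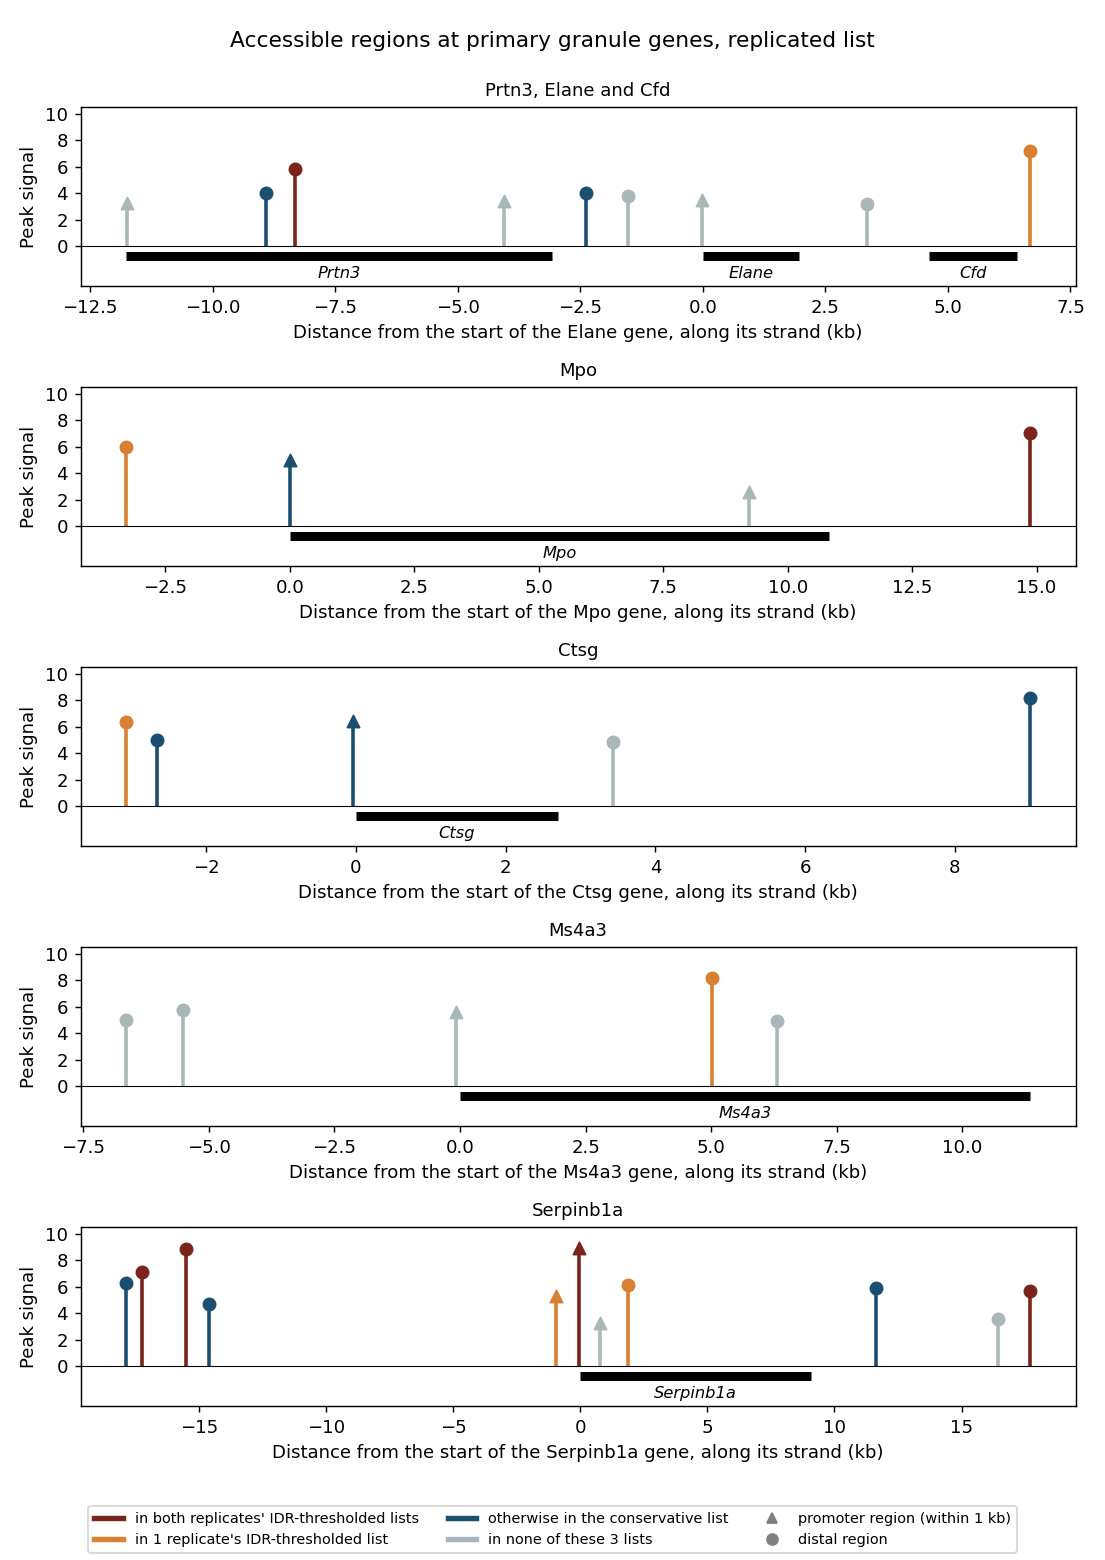
Regions of the replicated list at the 5 loci with distal regions, by distance of the summit from the start of the named gene (kb, positive along its strand) and peak signal. Triangles are promoter regions and circles distal ones, black bars are genes, and colour gives the IDR-thresholded lists that hold the region (grey: neither replicate's list nor the conservative list). At Mpo, Ctsg, Ms4a3 and the chromosome 10 cluster a distal circle is the highest point, at Serpinb1a a promoter triangle is.

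At the chromosome 10 cluster the region with the lowest IDR was inside Prtn3. Its summit lay in an intron 1.69 kb upstream of the start of protein-coding transcripts, with a signal of 5.86 in the replicated list, 5.51 in replicate 1 and 5.94 in replicate 2, and it was in the IDR-thresholded list of each replicate. A weaker region 2.27 kb upstream had 4.04, and 1 that was 2.08 kb downstream of an internal start, between Prtn3 and Elane, had 4.06. Cfd, without a promoter region, had a distal one 2.08 kb downstream of its start and past the end of the gene, with a signal of 7.20. That region had 5.69 in replicate 1 and 8.04 in replicate 2, and only the IDR-thresholded list of replicate 2 held it. A weak region 1.25 kb upstream of Cfd, whose edge was 1140 bases from the start, fell just outside the 1 kb limit and had a signal of 3.22. Elane had a region 1.53 kb upstream, edge 1435 bases from the start, with 3.83 in the replicated list and none in the ranked list of replicate 1. The region nearest to the limit on its inner side was the farther Serpinb1a region, with its edge 856 bases from a start. The next were at 307 bases (Serpinb1a) and 284 bases (the Prtn3 region in the gene body).

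At Mpo the stronger distal region lay past the end of the gene, 5.34 kb from an internal start and in an intron of the neighbour Lpo, which encodes lactoperoxidase. Its signal was 7.02 in the replicated list, 6.57 in replicate 1 and 6.67 in replicate 2, and it was in both replicates' IDR-thresholded lists. The other, 3.29 kb upstream, had 5.98, with 5.33 in replicate 1 and 6.02 in replicate 2, and passed the threshold in replicate 2 alone. Both had higher signals than the Mpo promoter in the replicated list and in each replicate's ranked list.

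At Ctsg the region strongest in the replicated list was 8.21 kb downstream of a start and past the gene's end. It had 8.16 in the replicated list, 7.03 in replicate 1 and 6.32 in replicate 2, and neither replicate's own IDR-thresholded list held it. Upstream of Ctsg lay a pair of regions at 2.65 kb and 3.08 kb, with signals of 5.02 and 6.35. At Ms4a3 the strongest region had its summit in a coding exon 4.96 kb downstream of the start and was higher than the promoter region, 8.16 against 5.59. It had 7.43 in replicate 1 and 7.52 in replicate 2. At Serpinb1a a group of 4 distal regions lay between 14.6 kb and 17.9 kb upstream, and the strongest of them, 15.5 kb upstream, had 8.83, with 8.01 in replicate 1 and 8.29 in replicate 2.

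Windows under some of these distal summits are printed. They are those of the strongest distal region at Mpo, Ctsg, Prtn3, Ms4a3 and Cfd. The upstream windows of Mpo and Elane are printed because they share a motif. Other distal windows of these genes are not printed. Each is 101 bases centred on the summit, read from GRCm38 along the gene's strand, with capitals as above.
Mpo, 3.29 kb upstream (chr11:87790241-87790341, plus strand): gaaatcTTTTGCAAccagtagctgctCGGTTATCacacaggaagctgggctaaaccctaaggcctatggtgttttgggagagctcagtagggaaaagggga
Elane, 1.53 kb upstream (chr10:79884666-79884766, plus strand): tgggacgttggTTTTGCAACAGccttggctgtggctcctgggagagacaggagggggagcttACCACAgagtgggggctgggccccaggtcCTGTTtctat
Mpo, 5.34 kb downstream (chr11:87808406-87808506, plus strand): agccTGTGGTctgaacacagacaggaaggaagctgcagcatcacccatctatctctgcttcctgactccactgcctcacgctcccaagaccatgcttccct
Ctsg, 8.21 kb downstream (chr14:56093513-56093613, minus strand): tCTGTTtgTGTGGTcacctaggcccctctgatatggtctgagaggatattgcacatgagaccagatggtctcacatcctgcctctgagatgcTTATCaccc
Prtn3, 1.69 kb upstream (chr10:79877874-79877974, plus strand): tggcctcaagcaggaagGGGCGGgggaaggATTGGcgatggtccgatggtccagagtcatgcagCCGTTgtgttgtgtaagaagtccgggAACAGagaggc
Ms4a3, 4.96 kb downstream (chr19:11635792-11635892, minus strand): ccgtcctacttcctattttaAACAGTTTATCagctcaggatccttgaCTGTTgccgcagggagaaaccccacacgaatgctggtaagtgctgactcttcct
Cfd, 2.08 kb downstream (chr10:79892881-79892981, plus strand): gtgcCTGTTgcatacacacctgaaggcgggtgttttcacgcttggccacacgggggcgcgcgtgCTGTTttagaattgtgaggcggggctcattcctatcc

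The C/EBP letters, absent from the promoter windows, were found in both upstream windows of Mpo and Elane, as the same run TTTTGCAA. In the Elane window the match overlaps a MYB match by its last bases. Of the members' 24 distal windows in the replicated list 3 held the C/EBP letters, the other being at Serpinb1a, against 5.72% of all 90879. The RUNX letters were in 7 of the 24 windows, among them Mpo downstream, Ctsg downstream and Elane upstream, against 19.4% of all. The PU.1 letters were in 3 of the 24, against 14.1%, and the MYB letters in 18 of the 24, against 52.1%. GATA letters were in 5 of the 24, against 16.1%, and in the Mpo upstream and Ms4a3 windows they overlap a MYB match. These shares rest on few windows and change with the width searched.

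Over the 35 regions of the 8 genes in the replicated list, the ranked list of replicate 1 held 32 and that of replicate 2 held 27. Both held 25 of them, 9 were in 1 list only (7 in replicate 1, 2 in replicate 2), and the weak Mpo region was in neither. Across the 25 shared regions Spearman's rho of the signals was 0.772, a description over regions that share their libraries. The IDR-thresholded lists of both replicates held 6 regions: 1 promoter (Serpinb1a) and 5 distal ones, at Mpo, Prtn3 and Serpinb1a.

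**Figure D4:**
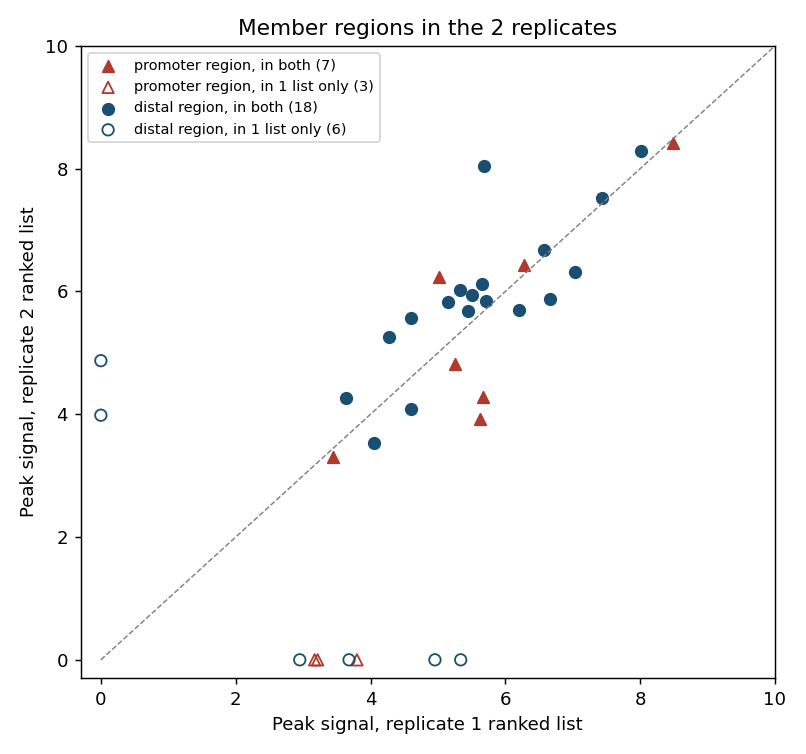
Peak signal of the 35 regions in the ranked list of replicate 1 (horizontal) and replicate 2 (vertical), with the diagonal dashed. Filled symbols are the 25 regions in both lists. Open symbols at 0 are the 9 regions in 1 list only, and 1 region is in neither. Among the filled symbols the Cfd region 2.08 kb downstream lies farthest above the diagonal, at 5.69 and 8.04.

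Other genes of the pathway were described by the same rule. All 17 of the other primary granule genes on these chromosomes had a promoter region in the conservative list, against 63.5% of all genes, at a median percentile of 40.6. Among them were Lyz2 (lysozyme), Bpi (a bactericidal protein), Srgn (the packaging proteoglycan serglycin) and Ctsc, the protease that activates the serine proteases, which had a signal of 12.3. Many of these encode lysosomal enzymes of every cell. Of 12 regulators, 11 had a promoter region: Cebpa, Cebpd, Cebpe, Spi1 (PU.1), Runx1, Cbfb, Myb, Gfi1, Irf8, Etv6 and Hoxa9. Cebpb had none in that list and 1 in the replicated list. Runx1 had 22 distal regions and Etv6 33. The last list held 11 genes of later neutrophil differentiation, most but not all of them genes of secondary and tertiary granules. Of these, 3 had a promoter region (Mmp8, Mmp9 and Mmp25). Ltf, Camp, Lcn2, Ngp, Cd177, Chil3 and the genes S100a8 and S100a9, which are not granule genes, had none.

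Of 47 other protein-coding genes with a start within 100 kb of a member's start, 25 had a promoter region in the conservative list, against 63.5% of all genes, and the counts by locus below can be read against the same share. At the chromosome 10 loci it was 16 of 21, among them Ptbp1 and Med16. Around Ctsg it was 1 of 9, with a region at Mcpt8, a mast cell protease gene by name. The granzyme genes Gzmd, Gzme, Gzmg and Gzmn and the genes Mcpt1, Mcpt2, Mcpt4 and Mcpt9 had none. Around Mpo 5 of 8 had a region, including Lpo, whereas Epx, the eosinophil peroxidase gene, had none in any of the 4 lists looked at. Around Ms4a3 it was 1 of 5, and Ms4a2 had none.

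The genes whose promoter percentiles over the 11 lists came nearest to those of Mpo, by Euclidean distance, were Trmt9b (3.01), Fam169b (4.80) and Rtn4r (5.60). Nearest to Elane were Adora2a (4.38), Arl6ip4 (4.71) and Tnfsf13 (4.85). The same set of lists as Mpo was found for 203 genes and as Elane for 385 genes, the members counted.

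The labelled cell type was checked by the same rule in the conservative list. The 6 progenitor genes Kit, Cd34, Fcgr3, Flt3, Csf1r and Gata2 all had a promoter region, at percentiles between 0.712 (Csf1r) and 67.9 (Flt3). Of 2 genes commonly gated out of this population, Ly6a had none and Il7r had 1. None of 6 mature neutrophil genes had a promoter region, and 3 of them had 1 in the replicated list. All 6 are among the genes of later neutrophil differentiation named above, so these are the same absences. The counts were 4 of 4 for erythroid, 3 of 3 for megakaryocyte, 2 of 4 for B cell and 2 of 4 for T cell genes, against 63.5% of all genes. The part of other cells in the members' calls was not tested, and more cells with an open site cannot be told apart from a site that is more open per cell.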

How the data were processed

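The 13 deposited peak lists come from ATAC-seq of 2 mouse libraries, on mm10 per the labels. Aligner, caller and read shift: not given in the sources used here. Of the values the deposited lists give per peak, a signal of unstated scale, a −log10 q-value and a score were used. The ranked lists also give −log10 IDR, per the deposited files' layout. The lists hold no counts, so depth and its precision are unknown. In the 2 ranked lists of both replicates, 16 columns of values per input were not used. Score was used to find the threshold: peaks passed from a score of 540.

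Overlapping peaks were merged on chromosomes 1 to 19, keeping the strongest summit. The sequence and GENCODE M21 annotation are of GRCm38, where 99.9% of annotated start codons read ATG. A promoter region comes within 1 kb of any start of a gene, with the conservative list as the main one. The promoter table from RefSeq matched 6 of the 8 genes. Prss57 and Serpinb1a are named without sequence. A percentile is the share of regions of the same kind and list with a lower signal. Counts in each list are given beside the share of all genes or regions, with no test, since there is 1 group. Alternatives were other windows, distances, lists, merging and motif widths, and leaving out either replicate. Starts of protein-coding transcripts only, the replicated and archived lists and the CpG tercile were chosen after seeing the data. The limit of 50 bases before the start, used for the PU.1 letters alone, was not planned. The 8 genes, lists and motifs were chosen with earlier results of these data known. Named genes were the 8, members of the lists, neighbours within 100 kb, and the 3 genes nearest in pattern to Mpo and to Elane. Some list members are not reported here by name. The steps were tested on simulated regions. Python 3.11.15, NumPy 2.4.6, pandas 2.3.3 and matplotlib 3.10.9 were used.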

Additional observations from a re-analysis of the deposited data

How the results depend on the processing

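Of 36 recomputed values of the main results, 23 stayed within the tolerance set for them, a factor of 1.5 for counts. The number of the 8 genes with a promoter region, 4 in the conservative list, was 7 with a window of 2500 bp, where Elane, Prtn3 and Cfd joined, 1 with the upper 50% of regions by signal, 7 in the replicated list, 7 in the archived list, and 1 to 2 without either replicate. Distal regions, 17 in all, numbered 1 in the upper 50%, 29 in the archived list and 7 to 8 without either replicate. The median percentile of the members' regions, 21.9 by signal, was 41.9 by −log10 q and 8.06 to 18.2 without either replicate. Motif matches over the 10 motifs, 36 within 50 bp of the summits, numbered 81 over whole regions. Counts of single motifs stayed within that factor in 6 of 20 recomputed values: PU.1 had 2 windows with a match within 50 bp, 5 within 100 bp and 6 over whole regions, RUNX 5, 9 and 13, and C/EBP 2, 3 and 4. The causes were not tested. Leaving out a replicate means the other's own list, which also has its own threshold. No paired analysis was possible because the series holds 1 group. Unknown depth limits every absence: a missing region was not called, and was not shown to be closed.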
